A study of Mus musculus with 4 samples.

Results

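Imprinted growth genes are read mainly from 1 parental allele, and 10 of them were followed here in the posterior part of mouse embryos that lack Jmjd3. The paternally expressed genes were Igf2, Dlk1, Peg3, Mest, Peg10 and Plagl1, and the maternally expressed genes were H19, Meg3, Cdkn1c and Grb10. Every array probe whose transcript identifier mapped to 1 of these genes was taken, which gave 18 probes for 9 genes, of 41174 probes and 13584 tested genes in all. No probe was paired with H19 by the RefSeq table used. Probes whose accessions that table lacks were left unnamed, so an H19 probe may be among them. H19 was therefore not analysed here, and the maternally expressed group held 3 genes. Total RNA came from embryos at E9.5 from matings between Jmjd3+/- mice, with 2 independent RNA samples from Jmjd3-/- embryos (replicates 1 and 9) and 2 from wild-type embryos (replicates 3 and 4). Jmjd3, now named Kdm6b, encodes a demethylase that removes repressive methyl groups from histone H3. How the allele was made, and how many embryos went into an RNA sample, are not stated in the labels. The spread behind each p-value is therefore that between these RNA samples. Each sample was labelled with Cy3 and hybridised to its own 1-colour Agilent array.

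Genomic imprinting marks the 2 parental copies of a gene differently, so that 1 copy is silent. At most such genes the mark is DNA methylation of a control region laid down in egg or sperm. As a broad rule, paternally expressed genes such as Igf2 promote fetal growth, and maternally expressed genes such as Cdkn1c and Grb10 restrain it. The arrays measured the sum of both alleles, and allelic expression was not measured. In such whole-tissue RNA, fewer cells of a type and less RNA per cell cannot be told apart.

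All 4 arrays lay on 1 slide, with the Jmjd3-/- arrays in positions 1 and 4 and the wild-type arrays in positions 2 and 3, so end or middle position on the slide and genotype cannot be told apart. On each array 59.8% to 63.0% of probes were well above background, and the number of arrays limits the precision. All 18 probes of the imprinted growth genes were well above background on all 4 arrays and 0 were saturated. Values are log2 signals relative to the 75th percentile of each array, and a difference is Jmjd3-/- minus wild-type. Where the 4 arrays are given, Jmjd3-/- replicate 1 stands before replicate 9, and wild-type replicate 3 before replicate 4. Kdm6b had a log2 signal of 0.35 and 0.11 in the Jmjd3-/- embryos against 2.15 and 2.23 in the wild-type embryos. Its difference was −1.96 (SE 0.12, n = 2 per genotype, limma adjusted p = 0.149), and the sources used here do not say whether its probe lies in the deleted part.

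Among the 9 measured imprinted growth genes, 7 had a lower mean and 2 a higher mean in Jmjd3-/- embryos. The transcription factor gene Plagl1 was at 68.9% of its wild-type signal, the growth inhibitor gene Cdkn1c at 76.3% and the signalling protein gene Dlk1 at 57.0%. Igf2 itself, the main fetal growth factor gene, was at 93.0%, and its arrays overlapped between genotypes. Grb10, which encodes a brake on insulin and IGF receptor signalling, was at 118.2%. In limma's fit 0 of the 9 genes passed an adjusted p of 0.05 over all tested genes, against 5 of 13584 genes overall (0.0368%; 0.0221% higher and 0.0147% lower). At an unadjusted p under 0.05 there were 2, Plagl1 and Cdkn1c, both lower, against 5.93% of all genes in that direction and 5.15% in the other (11.1% in all). The genotypes did not overlap for 5 of the 9 genes, 4 lower and 1 higher, against 46.8% of all genes, of which 23.7% were lower and 23.0% higher, so non-overlap by itself was common on these arrays.

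**Figure D1:**
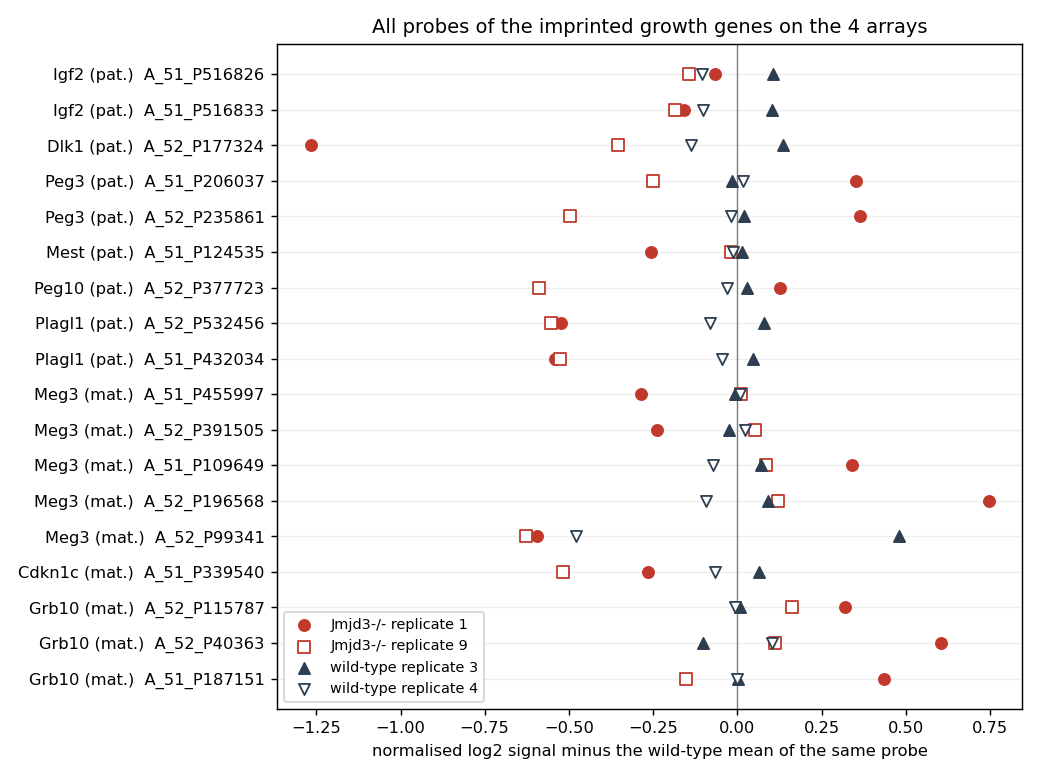
Normalised log2 signal of all 18 probes on each of the 4 arrays, less the wild-type mean of the same probe; red symbols are Jmjd3-/- arrays and dark symbols wild-type arrays, and pat. and mat. name the expressed parental allele. Both Plagl1 probes have both Jmjd3-/- arrays about −0.5 from the wild-type mean, whereas the Peg3 probes have 1 Jmjd3-/- array on each side.

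Plagl1 encodes a zinc finger protein that in the mouse regulates a network of other imprinted genes, Igf2, Cdkn1c and Dlk1 among them. Its brighter probe, A_52_P532456, read 3.90 and 3.87 in the Jmjd3-/- embryos against 4.50 and 4.34 in the wild-type embryos. Both Jmjd3-/- arrays lay below both wild-type arrays, and they were only 0.03 apart. The difference was −0.54 (SE 0.09, 95% interval −0.80 to −0.28), with a limma p of 0.00514 and an adjusted p of 0.325, and Plagl1 stood at rank 214 of the tested genes by p. The dimmer probe, A_51_P432034, gave −2.32 and −2.30 in Jmjd3-/- and −1.73 and −1.82 in wild-type, a difference of −0.53 (SE 0.09, limma adjusted p = 0.334 over 25056 probes). The probes therefore gave nearly the same difference from separate spots on the arrays.

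The promoter windows of 4 of these genes are shown where the gene is described, because their CG dinucleotides, the sites that imprinting methylates, differ widely. Whether a window lies in an imprint control region was not looked at. The windows are RefSeq's, build GRCm38.p6, and run from 250 bases before to 50 bases after an annotated start. The Plagl1 window, chr10:13090582-13090881 on the plus strand, holds 26 CG dinucleotides, shown in capitals, and 15.5% of all 32851 windows hold more.
Plagl1 promoter: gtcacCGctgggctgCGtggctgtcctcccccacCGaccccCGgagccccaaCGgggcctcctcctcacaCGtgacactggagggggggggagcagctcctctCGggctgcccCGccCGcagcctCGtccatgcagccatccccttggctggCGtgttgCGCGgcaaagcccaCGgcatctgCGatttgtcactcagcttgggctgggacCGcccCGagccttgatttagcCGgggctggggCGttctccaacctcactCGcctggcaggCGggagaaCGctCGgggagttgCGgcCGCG

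Dlk1 encodes a membrane and secreted relative of the Notch ligands that restrains differentiation of precursor cells, and its difference was the largest in size of the 9 genes with all 4 arrays. Its 1 probe read 2.80 and 3.71 in the Jmjd3-/- embryos against 4.20 and 3.93 in the wild-type embryos. Both Jmjd3-/- arrays were below both wild-type arrays, but they were 0.91 apart, and replicate 1 was much the lower. The difference was −0.81 (SE 0.35, 95% interval −1.81 to 0.19, limma adjusted p = 0.508). Without Jmjd3-/- replicate 1 it was −0.36, smaller in size than Peg10 (−0.59), Plagl1 (−0.55) and Cdkn1c (−0.52) without that array. Without replicate 9 it was −1.27. The Dlk1 window, chr12:109452573-109452872 on the plus strand, holds 9 CG dinucleotides (capitals), close to the median of 7 per window.
Dlk1 promoter: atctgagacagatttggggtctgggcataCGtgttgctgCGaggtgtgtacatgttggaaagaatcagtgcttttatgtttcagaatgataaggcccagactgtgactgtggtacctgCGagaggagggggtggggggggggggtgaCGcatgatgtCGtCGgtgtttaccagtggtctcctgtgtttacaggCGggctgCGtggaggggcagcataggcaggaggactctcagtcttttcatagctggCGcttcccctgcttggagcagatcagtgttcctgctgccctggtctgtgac

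Igf2 encodes the secreted growth factor that acts through the IGF1 and insulin receptors. Its main probe was printed 10 times on each array, and the mean log2 signal was 7.52 and 7.44 in the Jmjd3-/- embryos against 7.69 and 7.48 in the wild-type embryos. The SD over the 10 spots was 0.04 on each array, while the wild-type arrays differed by 0.21, more than the spread between spots. Jmjd3-/- replicate 1 lay between the wild-type arrays. The difference was −0.11 (SE 0.11, 95% interval −0.41 to 0.20, limma adjusted p = 0.746). The second Igf2 probe differed by −0.17 (SE 0.11), with both Jmjd3-/- arrays, 5.35 and 5.33, just below the lower wild-type array at 5.41. Leaving out wild-type replicate 3 brought the main probe to 0.00, so the small deficit rested on that array.

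Mest, which encodes an enzyme of the hydrolase fold family, read 7.27 and 7.50 in the Jmjd3-/- embryos against 7.53 and 7.51 in the wild-type embryos. Replicate 9 and the wild-type arrays were nearly level, and replicate 1 was the low one. The difference was −0.14 (SE 0.11, limma adjusted p = 0.678).

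Peg10 derives from a retrotransposon and is needed for the mouse placenta. Its 1 dim probe read −2.32 and −3.03 in the Jmjd3-/- embryos against −2.41 and −2.47 in the wild-type embryos, so the Jmjd3-/- arrays lay on opposite sides of the wild-type pair. The difference was −0.23 (SE 0.27, limma adjusted p = 0.779). Peg3, a zinc finger gene that affects growth and maternal care in mice, behaved likewise. Its brighter probe read 1.78 and 1.18 in Jmjd3-/- and 1.42 and 1.45 in wild-type (difference 0.05, SE 0.23, limma adjusted p = 0.953), and its dimmer probe 0.97 and 0.11 against 0.62 and 0.58 (difference −0.07, SE 0.32). In both probes replicate 1 was the highest array and replicate 9 the lowest. The Peg3 window, chr7:6730370-6730669 on the minus strand, held GGGGCCCC (capitals), a palindromic sequence that the Plagl1 protein is known to bind. It was the 1 such window among 14, which came from 7 of these genes, and 1.08% of all windows hold the sequence. Cdkn1c, Peg10 and H19 had no window, so their promoters were not searched.
Peg3 promoter: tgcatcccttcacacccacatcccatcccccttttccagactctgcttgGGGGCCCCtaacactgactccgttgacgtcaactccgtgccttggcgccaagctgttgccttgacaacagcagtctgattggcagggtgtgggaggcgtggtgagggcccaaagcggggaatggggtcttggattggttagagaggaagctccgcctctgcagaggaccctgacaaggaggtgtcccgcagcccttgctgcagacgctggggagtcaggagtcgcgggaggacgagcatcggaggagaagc

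Among the maternally expressed genes, Cdkn1c encodes an inhibitor of cyclin-dependent kinases that stops cell division and limits embryo size. Its 1 probe read 4.55 and 4.30 in the Jmjd3-/- embryos against 4.88 and 4.75 in the wild-type embryos. The groups did not overlap, and the difference was −0.39 (SE 0.13, 95% interval −0.75 to −0.04), with a limma p of 0.0381 and an adjusted p of 0.421. Over the arrays left out it ranged from −0.52 to −0.26. Of its relatives, 5 of 6 other CDK inhibitor genes were tested and 0 passed, with a median of −0.03. Cdkn2d differed by −0.31 (SE 0.19), Cdkn2b by 0.29 (SE 0.18), Cdkn1b by −0.14 (SE 0.23) and Cdkn2c by −0.03 (SE 0.25). The dimmer second probe of Cdkn1b differed by −0.28 (SE 0.09), with no overlap between genotypes. Cdkn2a was not well above background on any array.

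Grb10 encodes an adaptor that binds the insulin and IGF1 receptors and dampens growth. Its brightest probe read 6.34 and 6.19 in the Jmjd3-/- embryos against 6.03 and 6.02 in the wild-type embryos. Both Jmjd3-/- arrays were above both wild-type arrays, which were 0.01 apart, and the difference was 0.24 (SE 0.09, 95% interval −0.02 to 0.50, limma adjusted p = 0.468). The other Grb10 probes differed by 0.36 (SE 0.21) and 0.14 (SE 0.23), with Jmjd3-/- replicate 1 the highest array in each and replicate 9 the lowest in the last. Grb10 lies on chromosome 11, as Kdm6b does. The Grb10 window with the most CG dinucleotides, chr11:12037371-12037670 on the minus strand, holds 45 (capitals), and 1.65% of all windows hold more.
Grb10 promoter: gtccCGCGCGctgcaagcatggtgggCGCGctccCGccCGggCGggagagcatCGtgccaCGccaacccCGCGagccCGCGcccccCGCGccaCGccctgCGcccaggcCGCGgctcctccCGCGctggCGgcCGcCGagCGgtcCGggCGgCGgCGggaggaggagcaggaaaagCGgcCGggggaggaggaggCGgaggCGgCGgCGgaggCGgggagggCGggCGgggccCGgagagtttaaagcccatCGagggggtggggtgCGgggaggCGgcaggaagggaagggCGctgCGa

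Meg3 is a long noncoding RNA of the Dlk1 region, and its 5 probes did not run one way. The brightest, A_51_P455997, read 4.19 and 4.48 in the Jmjd3-/- embryos against 4.46 and 4.48 in the wild-type embryos, a difference of −0.14 (SE 0.13, limma adjusted p = 0.719), with replicate 1 alone low. The next probe, assigned to the same annotated transcript, had the same order and differed by −0.09 (SE 0.13). The 3 dimmer probes are assigned to another Meg3 transcript. Of these, A_51_P109649 and A_52_P196568 differed by 0.21 (SE 0.13) and 0.43 (SE 0.25), with replicate 1 the highest array in both, and A_52_P99341, the dimmest, by −0.61 (SE 0.36), with wild-type replicate 3 far above the other 3 arrays. The direction for Meg3 thus depended on the probe, and 0 of the 18 probes of these genes passed an adjusted p of 0.05, as did 0 of all 25056 probes tested in limma; at an unadjusted p under 0.05, 9.67% of all probes passed (4.85% higher and 4.82% lower). Of the 18 probes 7 were lower and 4 higher with no overlap between genotypes, against 21.3% and 23.3% of all probes.

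**Figure D2:**
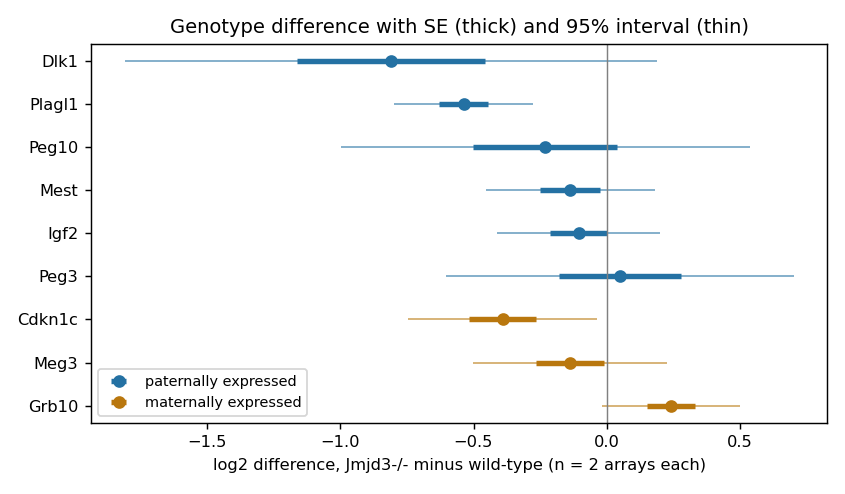
Log2 difference of each gene's brightest probe, Jmjd3-/- minus wild-type, with n = 2 arrays per genotype; thick bars are the SE, thin bars the 95% interval, and colour gives the expressed allele. The intervals of Plagl1 and Cdkn1c do not reach 0; those of the other 7 genes do.

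The comparison of the parental classes asks whether paternally and maternally expressed growth genes differed in their response. Among the paternally expressed genes 5 of 6 were lower in Jmjd3-/-, with a median difference of −0.18, and among the maternally expressed genes 2 of 3 were lower, with a median of −0.14. That maternal median was the value of the brightest Meg3 probe, and the direction of Meg3 depended on the probe. With a gene's probes averaged, the maternal median was −0.04 and the paternal median stayed at −0.18. The median over all tested genes was −0.01, and 53.1% of them were lower. With the brightest probes, the paternal median less the maternal median was −0.05. Array by array against the wild-type mean, this gap came to 0.10 (replicate 1) and −0.31 (replicate 9) with Jmjd3-/- embryos, against 0.05 and −0.05 in the wild-type arrays. Both wild-type values thus sat between those of the Jmjd3-/- arrays, which lay on opposite sides of 0, so the gap between classes was smaller than the spread between replicates. In the gap and in each class median, the wild-type values mirror each other around 0 because the centring uses their own mean. The paternal median alone was −0.16 and −0.30 in Jmjd3-/- replicates 1 and 9, below 0.06 and −0.06 in wild-type replicates 3 and 4. The maternal median was −0.26 and 0.01 in Jmjd3-/-, and 0.01 and −0.01 in wild-type, so replicate 1 alone was low. Without replicate 1 the maternal median was 0.01.

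**Figure D3:**
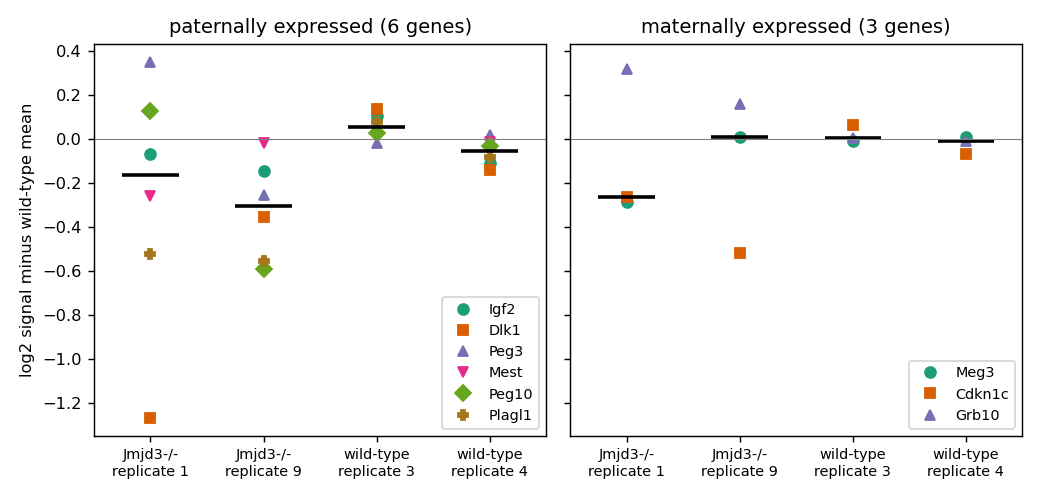
Log2 signal of each paternally (left) and maternally (right) expressed gene on each array, less its wild-type mean; black bars are the median over the genes of a class. The paternal medians of the Jmjd3-/- arrays are −0.16 and −0.30 and the maternal medians −0.26 and 0.01.

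The Jmjd3-/- arrays were further apart than the wild-type arrays for 7 of the 9 genes, against 71.0% of all tested genes. For 3 genes, Peg3, Peg10 and Meg3, they lay on opposite sides of the wild-type mean. For Meg3 this was by a small margin, with replicate 9 at 4.48 against a wild-type mean of 4.47. The share of all genes with this pattern was not counted. The genes with profiles most like Igf2 over the 4 arrays, by Euclidean distance of log2 values centred on the wild-type mean, were Strap, Nxpe4 and Dctd (distances 0.03, 0.03 and 0.04), and 62 named genes lay within 0.1. For Plagl1 they were Dcdc2a, Abhd15 and Slc16a12 (0.02, 0.07 and 0.08), and 4 genes lay within 0.1. The distance rests on 4 arrays, so a near profile describes these samples only.

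Imprinted genes lie in clusters that share control regions, so the neighbours of the growth genes were set beside them; the grouping was made after the values were seen and carries no test. Whether each neighbour is imprinted in this tissue was not measured. In the Kcnq1 cluster on chromosome 7, which holds Cdkn1c, 5 of 11 tested genes were lower and 6 higher, with a median of 0.00. Phlda2, a maternally expressed gene that limits placental growth in mice, read 3.99 and 3.66 in Jmjd3-/- and 2.83 and 2.82 in wild-type, with a difference of 1.00 (SE 0.14) and an adjusted p of 0.260 in limma. Its second probe gave 1.05 (SE 0.16). Phlda2 and Cdkn1c, both maternally expressed and controlled by the same region in the mouse, thus lay on opposite sides of 0. Kcnq1ot1, the paternally expressed noncoding RNA of that region, differed by 0.71 (SE 0.27, limma adjusted p = 0.468), and its other 2 probes by 0.52 and 0.38, while Kcnq1 differed by −0.22 (SE 0.09). Ins2, the neighbour of Igf2, differed by 0.37 (SE 0.10, limma adjusted p = 0.366), opposite in sign to Igf2, and by 0.35 in its second probe.

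In the Dlk1-Meg3 cluster on chromosome 12 all 4 tested genes had a negative difference, against 53.1% of all genes, with a median of −0.37 and 0 past the threshold. Meg3 counts here by its brightest probe, and its direction depended on the probe. Rian, a noncoding RNA downstream of Meg3 that is named here after its values were seen, read −0.68 and 0.77 in the Jmjd3-/- embryos against 0.28 and 0.47 in the wild-type embryos, so that replicate 1 was low and replicate 9 high. Dio3, which encodes an enzyme that inactivates thyroid hormone and was also chosen after its values were seen, differed by −0.41 (SE 0.19). In the Peg10-Sgce cluster on chromosome 6, Asb4, a maternally expressed gene, read 2.66 and 3.47 in Jmjd3-/- and 4.47 and 4.20 in wild-type, a difference of −1.27 (SE 0.32, limma adjusted p = 0.363), and its second probe gave −1.24 (SE 0.27). Usp29, next to Peg3, differed by −0.21 (SE 0.09). Igf2r, whose product takes up and degrades the IGF2 protein, read 3.19 and 2.61 in Jmjd3-/- and 2.32 and 2.23 in wild-type, a difference of 0.62 (SE 0.22, limma adjusted p = 0.455).

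**Figure D4:**
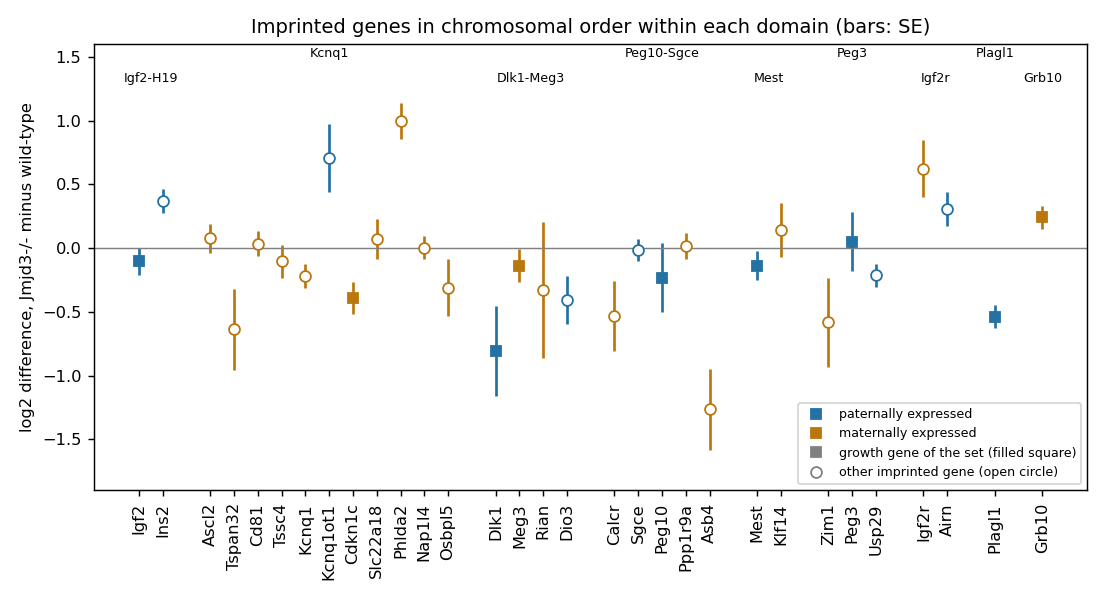
Log2 difference, Jmjd3-/- minus wild-type, of imprinted genes in chromosomal order within each cluster, with the SE of n = 2 arrays per genotype; filled squares are the growth genes of the set and open circles other imprinted genes, coloured by expressed allele. Phlda2 at 1.00 and Cdkn1c at −0.39 lie in 1 cluster. The expressed allele is the listed one and was not measured in this tissue.

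Wider lists of imprinted genes had medians near that of all genes. The expressed allele is the one the lists assign, and whether each gene is imprinted in this tissue was not measured. Of 23 further paternally expressed genes 19 were tested, 9 higher and 10 lower, with a median of −0.01. Magel2 differed by 0.64 (SE 0.22). Of 23 further maternally expressed genes 20 were tested, 10 higher and 10 lower, also with a median of −0.01 and a range from −1.70 to 1.00. In both lists 0 genes passed the adjusted threshold in limma, and 2 of 19 and 2 of 20 had an unadjusted p under 0.05, against 11.1% of all genes.

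In the IGF pathway 21 of 24 listed genes were tested, of which 9 were higher and 12 lower, with a median of −0.02 and 0 past the adjusted threshold; at an unadjusted p under 0.05 there were 3 of 21, all lower, against 5.93% of all genes in that direction. The ligand gene Igf1 read −1.50 and −1.51 in Jmjd3-/- and −0.97 and −1.15 in wild-type, a difference of −0.45 (SE 0.10, limma adjusted p = 0.335), and its second probe gave −0.58. Igfbp5, which encodes a binding protein that holds IGFs in the matrix, differed by −0.57 (SE 0.14) and −0.69 (SE 0.14) in its 2 probes. Grb14, a relative of Grb10, differed by −0.36 (SE 0.11), opposite in sign to Grb10. Igf2bp3, which encodes a protein that binds Igf2 mRNA, differed by 0.21 (SE 0.09) in its brightest probe. Its other probes differed by 0.105 (SE 0.09) and 0.048 (SE 0.088). The receptor gene Igf1r, chosen after its values were seen, read 1.98 and 0.90 in Jmjd3-/- and 0.79 and 0.79 in wild-type (difference 0.66, SE 0.40). Replicate 1 was much the higher and replicate 9 only just above wild-type. Its dimmer probes differed by 0.42 (SE 0.11) and 0.60 (SE 0.23), with both Jmjd3-/- arrays above both wild-type arrays in each.

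Of 13 genes that keep or read imprints, 12 were tested, 10 with a positive and 2 with a negative difference, with a median of 0.10 and 0 past the threshold adjusted or not. The maintenance genes Uhrf1 and Dnmt1 differed by 0.21 (SE 0.08) and 0.23 (SE 0.10), the methyltransferase gene Dnmt3b by 0.43 (SE 0.18), and Dnmt3a by −0.23 (SE 0.09) in its brightest probe and 0.02 and −0.04 in the others. Of the PLAG and DLK relatives, Plagl2 alone was tested (0.13, SE 0.29) and Plag1 was below background on all arrays.

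Markers of cell types and body regions were set beside these genes, and 0 markers of any list passed the adjusted threshold in limma. They are given as the sum of normalised signals in units of each array's 75th percentile. The 6 neuron markers summed to 3.07 and 4.07 in Jmjd3-/- and to 6.36 on both wild-type arrays, and all 6 were lower. Of these, 5 had an unadjusted limma p under 0.05, against 5.93% of all genes lower and 5.15% higher. The 5 head markers summed to 0.30 and 1.13 against 2.72 and 3.28, with Otx2 and Six3 below background on all arrays. Both of the 2 tested, Lhx2 and Emx2, were lower, and Emx2 overlapped between genotypes. Lhx2, named after its values were seen, made up most of each sum. Its log2 signal was −2.09 and −0.08 in Jmjd3-/- and 1.35 and 1.61 in wild-type. The head sum thus mainly followed 1 gene, and whether it reflects head tissue was not tested. The 6 posterior markers, all well above background in wild-type as the tissue label implies, summed to 58.6 and 38.8 against 24.1 and 26.0, with 4 higher and 2 lower. Most of the rise of this sum came from Tbx6, named after its values were seen. Its log2 signal was 4.87 and 3.95 in Jmjd3-/- and 2.78 and 2.96 in wild-type. At an unadjusted limma p under 0.05, 3 posterior markers were higher and 1 lower. Among them Hoxd10, named after its values were seen, ran against the sum, with a difference of −0.65 (SE 0.07) and no overlap between genotypes. The sums of the 7 mesenchyme markers overlapped between genotypes, at 51.6 and 57.7 against 76.8 and 49.6, with 6 of 7 lower. Col1a1 and Col1a2 made up most of each sum, and the wild-type arrays differed by 1.19 and 0.88 in them. At an unadjusted limma p under 0.05 there were 3 of 7, against 5.93% of all genes lower. These were Tbx18 (−0.985), Prrx1 (−0.74) and Twist1 (−0.54), all lower with no overlap between genotypes.

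The 9 visceral endoderm and liver markers summed to 34.3 and 6.54 against 20.8 and 14.0, with 6 of the 8 tested lower. Of the 8, 4 were lower at an unadjusted limma p under 0.05, against 5.93% of all genes in that direction. Alb, the serum albumin gene, singled out after its values were seen, made up 26.5 of the 34.3 in Jmjd3-/- replicate 1 and at most 0.20 on each other array. Without Alb the sums were 7.75 and 6.53 against 20.6 and 13.9 and did not overlap between genotypes. The 6 erythroid markers summed to 312 and 441 against 470 and 594, and all 6 were lower, 0 of them at an unadjusted limma p under 0.05. Of the trophoblast markers, Tpbpa, Gcm1 and Psg17 were below background on all arrays. Tfap2c, the 1 tested and named for that reason, differed by −1.05 (SE 0.35) with no overlap, and the list summed to 0.41 and 0.72 against 0.98 and 1.20. Tfap2c made up most of each sum, and whether the sum reflects trophoblast tissue was not tested. The part of these shifts in the differences of Dlk1, Plagl1, Cdkn1c and Phlda2 was not tested.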

How the data were processed

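Total RNA of the posterior part of E9.5 embryos was measured on 4 arrays, 2 per genotype, and groups were taken from the sample titles. The deposited intensity values came from Agilent Feature Extraction 10.7.3.1 (submitters' processing notes) and were, per the file headers, corrected for background and not normalised between arrays. The authors' deposited log2 value table states no scale; subtracting an array's 75th percentile and then the wild-type mean from log2 processed intensity gave its values within 0.01 for 99.9% of probes (column medians −0.02 to 0.06), and it served as an alternative.

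Of 45018 spots, 1639 control spots were left out, spots of a probe were averaged as log2, and each array's 75th percentile was subtracted. RefSeq's GRCm38.p6 table named 26690 of 41174 probes by accession and 28 by symbol; its coordinates were not used for probes, since the headers name another build. A gene was represented by its brightest probe, which had to be well above background in both samples of either genotype to enter the test. The test was limma's (version 3.58.1, R 4.3.3, lmFit and eBayes) with genotype as the one factor, with Benjamini-Hochberg adjustment over all 13584 genes, or over 25056 probes for single probes; the script was tested on simulated data. Lists are given as counts and medians with no test. The named genes are all members, Kdm6b, up to 4 genes of each list by p and the 3 nearest profiles of Igf2 and Plagl1; Rian, Dio3, Igf1r and the single markers given with values fall outside this rule and were chosen after their values were seen, as was the sum without Alb. Members and lists were chosen with earlier results of these data known. The normexp alternative used the median spot signal, since the files hold no mean signal. Alternatives covered scaling, background, filters, probe choice, outlier spots and each array left out.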

Additional observations from a re-analysis of the deposited data

How the results depend on the processing

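Dlk1, Mest, Plagl1, Cdkn1c and Grb10 kept their direction under all 12 alternatives, and the lowest adjusted p of any of the 9 genes was 0.0848 (limma). Averaging a gene's probes turned Peg3 to −0.007. Over the arrays left out in turn, Igf2 ranged from −0.21 to 0.001 (also its main probe), Peg3 from −0.25 to 0.35 (second probe −0.50 to 0.37), Peg10 from −0.59 to 0.13, Meg3 from −0.29 to 0.01 (second probe −0.239 to 0.053) and the dimmest Grb10 probe from −0.15 to 0.44. With probes averaged per gene, the paternal median was −0.184 and the maternal median −0.039, so their gap was further from 0 than with the brightest probes. Over the arrays left out, the paternal median ranged from −0.30 to −0.16, the maternal median from −0.26 to 0.01 with 1 to 2 genes lower, and their gap from −0.31 to 0.10. The further paternal median ranged from −0.022 to 0.074, and was −0.029 with median scaling, −0.002 with normexp and −0.022 with probes averaged per gene. The further maternal median ranged from −0.085 to −0.035, and was −0.075 with probes averaged per gene. The IGF median ranged from −0.047 to 0.039, that of imprint regulators from 0.068 to 0.135 (2 to 4 genes lower), and that of CDK inhibitors from −0.171 to 0.059 (1 to 4 lower). Plagl2 was lower without Jmjd3-/- replicate 1, and 1 of its list was lower without a filter (0 to 1 over arrays left out). Without Jmjd3-/- replicate 9, 1 further maternal gene passed, Phlda2 (1.16, adjusted p = 0.0495), and 1 IGF gene, Igf1r (1.20, adjusted p = 0.0490), in limma; over the other arrays left out 0 did. Over all genes 3 were higher and 2 lower: 0 and 0 with quantile normalisation, without a filter and with a filter on all 4 arrays, 1 and 1 with normexp, and 4 lower with median scaling, with probes averaged per gene and without outlier spots. Over arrays left out the counts ranged from 0 to 102 higher and from 0 to 119 lower, with the most without Jmjd3-/- replicate 9. The cause was not tested. No paired analysis was possible because the genotypes share no replicate number. With 2 arrays per genotype, the narrowest 95% interval of the 9 genes was 0.52 wide, which limits what a missed threshold shows.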
